A study of Mus musculus with 24 samples.

Results

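The difference between CD69+ and CD69- natural killer (NK) cells was compared between CD27+ and CD11b+ NK cells of mouse tumours. NK cells are innate lymphocytes with cytotoxic granules that also release cytokines. They had been sorted at day 14 from B16F10 melanoma, an established mouse tumour line, grown under the skin of the flank of female wild-type B6 mice. RNA was sequenced from 100 cells per library in 4 populations with 6 libraries each, namely CD27+CD69+ and CD27+CD69- cells beside CD11b+CD69+ and CD11b+CD69- cells. No agent or other allele is named for any population, the labels do not say whether libraries of a population came from separate animals, and p-values therefore measure only the spread between these libraries. The CD69 difference of a gene is its log2 level in CD69+ minus that in CD69- libraries, and the quantity described here is this difference in CD27+ cells minus the same difference in CD11b+ cells. It is called the CD27-minus-CD11b value below, and it is positive where CD69+ cells stood relatively higher among CD27+ cells. All 24 of 24 libraries entered 1 fit of 10536 genes. Results are given for the 7789 genes with a mean of at least 10 CPM (counts scaled to equal library size and composition) in at least 3 of the 4 populations.

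Mouse NK cells pass from a CD27+ stage with low CD11b to a CD11b+ stage that circulates and is rich in cytotoxic granules. CD69 is a surface lectin that appears soon after activation or exposure to interferon and keeps lymphocytes in tissue by taking the exit receptor S1PR1 off the surface. Type I interferons act through a receptor on nearly all cells, after which transcription factors bind the interferon-stimulated response element of target genes such as Ifi44, Rsad2 and Bst2. IL-2 and IL-15 share receptor chains, signal through STAT5 and maintain NK cells.

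The libraries held NK cell RNA throughout, although the cell type field of the labels reads Melanoma, and genes of other cells were also counted, most of all in the CD27+ libraries. All 19 measured genes of an NK identity list (Ncr1, Klrb1c, Eomes, Prf1 and others) had counts in every population. Total counts ran from 1213914 to 2671533 per library, and 3 counts corresponded to 1.15 to 2.47 CPM. In CD27+CD69- libraries the 14 genes of a fibroblast list, such as Dcn and Col1a1, summed to between 611 and 13350 CPM (median 6600), and none was at 0. The highest sum in any other library was 310.1 CPM, in CD27+CD69+ replicate 6. Dcn had 0 counts in all 3 other populations, where 9 to 12 of the 14 genes were at 0. A 10-gene melanoma list reached 10380 CPM in CD27+CD69- replicate 6 and 826 CPM in CD27+CD69+ replicate 6, against at most 28.2 CPM in CD11b+ libraries. The NK identity list summed to 11640 to 19950 CPM in CD27+CD69- and 20020 to 22830 CPM in CD27+CD69+ libraries. It summed to 30610 to 32940 CPM in CD11b+CD69- and 27450 to 30250 CPM in CD11b+CD69+ libraries. A 12-gene T cell list summed to 928 to 1307 CPM in CD11b+CD69- and 1366 to 1768 CPM in CD11b+CD69+ libraries, and to 1258 to 3015 CPM and 2405 to 3874 CPM in the CD27+ libraries without and with CD69. Its member Cd3d had means of 3.33, 12.3, 257 and 429 CPM in the same order. In that order Cd8a had 4, 0, 116 and 172 counts and Cd4 had 0, 25, 17 and 0 counts. The part of T cell RNA in the results was not tested. Fewer NK cells and less RNA per NK cell cannot be told apart in such libraries. The CD27+CD69- population and RNA of stromal cells cannot be told apart either, since the fibroblast sums of this population and the others do not overlap. Every CD27-minus-CD11b value includes that population.

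**Figure D1:**
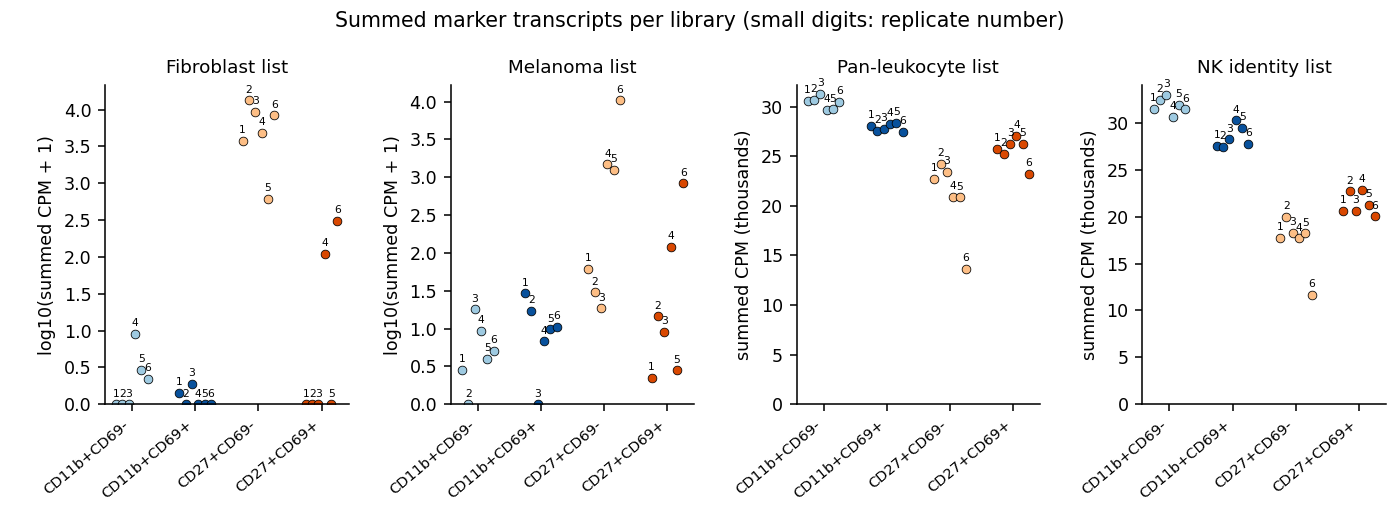
Summed CPM of 4 marker lists in each of the 24 libraries (fibroblast and melanoma lists on a log10 scale of summed CPM + 1, pan-leukocyte and NK identity lists in units of 1000 CPM). Each point is a library and small digits give its replicate number. The 6 CD27+CD69- libraries have the highest fibroblast sums, 611 CPM or more, and CD27+CD69- replicate 6 has the lowest pan-leukocyte and NK identity sums, 13620 and 11640 CPM.

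The CD69 difference was not the same in the 2 kinds of NK cell for 47 of the 7789 reported genes (0.603%). It was higher in CD27+ cells for 24 genes (0.308%) and lower for 23 genes (0.295%). Leaving out 1 library at a time gave 12 to 37 higher and 13 to 35 lower calls. The quasi-likelihood test of edgeR was used throughout, with Benjamini-Hochberg adjustment over all 10536 genes and a threshold of 0.05. Over all genes tested it made 61 calls (0.579%), and 997 genes (9.46%) had an unadjusted p under 0.05. A gene without a call is not thereby shown to have the same CD69 difference in both kinds of cell. All 47 genes kept the sign of their value under every alternative run. Scaling by 24 pan-leukocyte genes instead of by all genes gave another balance of 3 higher and 114 lower calls, and moved the median over all reported genes from -0.0034 to -0.46. The genes called higher under it were Ero1lb, Klra9 and Ly6c2, and all 23 lower genes were called again. With the fibroblast and melanoma sums as covariates 0 genes were called higher and 2 lower, Ifi44 and Ifi211. Without the 3 CD27+CD69- libraries richest in fibroblast genes 8 were called higher and 8 lower, and without the 3 richest in melanoma genes 5 higher and 16 lower. Both of these fits hold fewer CD27+CD69- libraries, so a call can be lost in them without a smaller value.

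The CD69 differences themselves were counted in the same fit. In CD11b+ cells 259 reported genes (3.33%) differed, 150 up and 109 down in CD69+ libraries. In CD27+ cells 105 (1.35%) differed, 58 up and 47 down. Over all 10536 genes tested the calls were 289 (2.74%, with 1.64% up and 1.1% down) in CD11b+ and 195 (1.85%, with 0.55% up and 1.3% down) in CD27+ cells. These comparisons share no library, and 28 genes were called in both, which is 10.8% of the CD11b+ calls and 26.7% of the CD27+ calls, 27 of them in the same direction. Across the 7789 reported genes, which are not independent replicates, the CD69 differences had a Pearson r of 0.177 and a Spearman rank correlation of 0.173.

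More of the 47 genes were called in CD11b+ than in CD27+ cells. Of the 23 lower genes, 13 rose with CD69 in CD11b+ cells without a call in CD27+ cells, 1 (Ifitm3) rose in CD11b+ and fell in CD27+ cells, 7 fell in CD27+ cells without a call in CD11b+ cells, and 2 passed in neither. Of the 24 higher genes, 15 fell with CD69 in CD11b+ cells without a call in CD27+ cells, 4 rose in CD27+ cells without a call in CD11b+ cells, and 5 passed in neither. The signs of the CD69 differences were opposite for 22 of the 24 higher and 15 of the 23 lower genes. All were selected on the gap between their CD69 differences, which favours opposite signs, and a sign without a call is uncertain. Ifitm3 alone was called in both kinds of cell. The population whose mean stood farthest from the other 3 was CD11b+CD69- for 29 genes, 15 lower genes in which it was the low one and 14 higher genes in which it was the high one. It was CD27+CD69- for 12 genes, high in 8 lower genes and low in 4 higher genes.

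**Figure D2:**
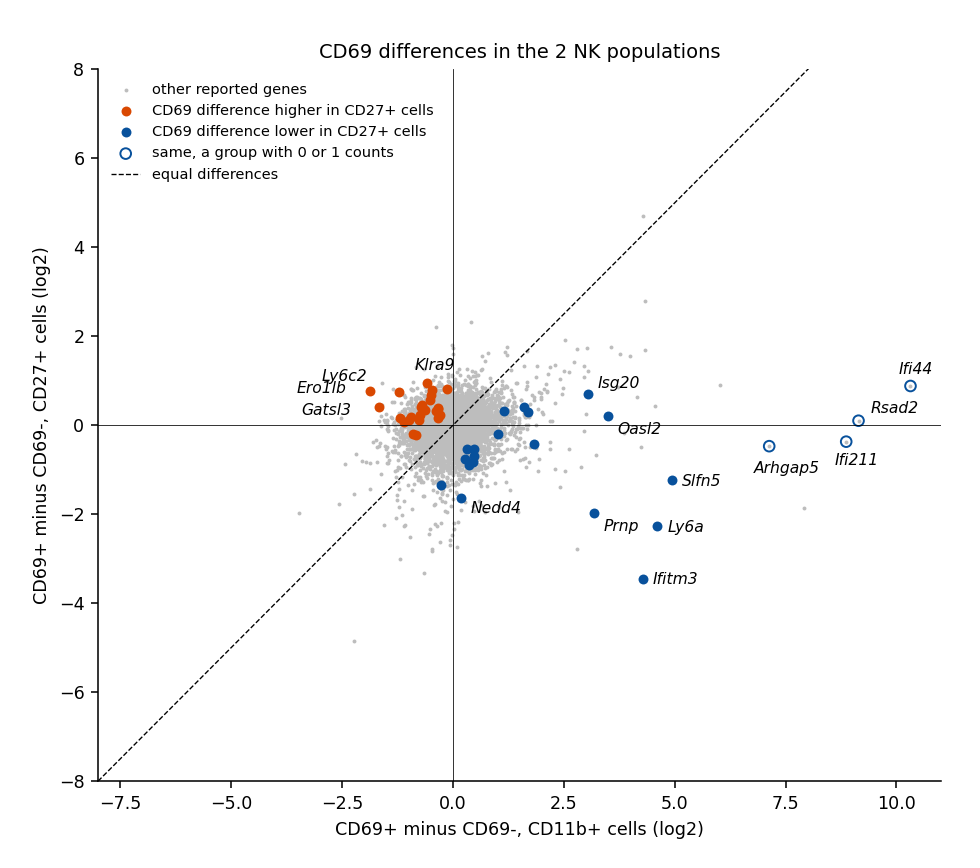
CD69 difference in CD11b+ cells (x axis, log2) against that in CD27+ cells (y axis, log2) for 7789 reported genes, each point a gene. The 24 genes with a higher difference in CD27+ cells lie above the dashed line of equal differences and the 23 lower genes below it. Open circles are 4 genes with 0 or 1 counts in CD11b+CD69- libraries, whose fitted position depends on the model and gives no size.

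8 of the 23 lower genes came from 3 lists of interferon-induced genes, and each of these 8 had its lowest mean in CD11b+CD69- libraries. Of 37 reported genes of a type I interferon list, 6 were called lower (0.295% of all reported genes were) and 0 higher: Bst2, Ifi44, Isg20, Ly6e, Oasl2 and Rsad2. The list's median CD27-minus-CD11b value was -0.87, against -0.0034 over all reported genes, and 28 of its members were below 0 (3921 of all 7789 reported genes were). In CD11b+ cells 15 of the 37 rose with CD69 (1.93% of all reported genes rose) and in CD27+ cells 1 rose (0.745%). The median CD69 difference of the list was above 0 in both, at 1.39 in CD11b+ and 0.46 in CD27+ cells. Over all reported genes these medians were 0.0015 and 0.0133. Ifi211 of the Ifi200 family of DNA sensors and Slfn5 of the Schlafen family were also called lower.

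The stretches before the start of Rsad2, Bst2, Ifi211 and Slfn5 are shown because they hold GAAA, 2 bases of any kind and GAAA again, the core of the interferon-stimulated response element. They come from the RefSeq promoter table for GRCm38.p6 and are written 5′ to 3′ on the gene's strand, with the match in capitals. Where the match lies on the other strand, as in Rsad2, the capitals are its reverse complement. The Rsad2 window is chr12:26456543-26456592 and its match ends 111 bases before the start.
Rsad2: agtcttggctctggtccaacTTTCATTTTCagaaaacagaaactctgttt
The Bst2 window is chr8:71537573-71537622, with a match that ends 121 bases before the start and a second, overlapping match that ends 115 bases before it.
Bst2: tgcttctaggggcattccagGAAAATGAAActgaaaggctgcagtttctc
The Ifi211 window is chr1:173913054-173913103, with a match that ends 28 bases before the start.
Ifi211: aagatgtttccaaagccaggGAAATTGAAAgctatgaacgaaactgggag
The Slfn5 window is chr11:82951927-82951976, with a match that ends 146 bases before the RefSeq start. In GENCODE M21 this window lies inside the bounds of Slfn5, in no annotated exon.
Slfn5: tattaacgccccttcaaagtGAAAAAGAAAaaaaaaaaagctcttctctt
Both strands of the 250 bases before each start were searched. The letters occurred in 4 of 19 lower genes with an entry in the table (21.1%), in 0 of 14 higher genes, in 225 of 6174 reported genes (3.64%) and in 936 of all 27025 genes of the table (3.46%). Among lower genes that rose in CD11b+ cells they occurred in 4 of 11 (36.4%), and in the type I interferon list in 10 of 26 (38.5%). TTCNNNGAA, the letters bound by STAT dimers, occurred in 3 of the 19 lower genes (15.8%: Bst2, Isg20 and Nedd4), in 1 of the 14 higher genes (7.14%: Nkg7) and in 8.13% of all genes of the table. A match is a description of letters, not of a bound site.

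Ifi44 (ENSMUSG00000028037, chromosome 3, 151730922 to 151749960, minus strand), an antiviral gene, had 0 counts in all 6 CD11b+CD69- libraries and 29.4 to 149 CPM (median 63.5) in CD11b+CD69+ libraries. In CD27+CD69- libraries it stood at 11.6 to 37.96 CPM (median 27.7) and in CD27+CD69+ libraries at 23.8 to 91.9 CPM (median 44.2). Only the CD11b+CD69- libraries lay apart, and the 2 CD27+ populations overlapped. Against a floor of 3 counts over the CD11b+CD69- libraries, Ifi44 was at least 342-fold higher in CD11b+CD69+ libraries. The fold in CD11b+ cells was thereby at least 184 times the 1.85-fold ratio of means in CD27+ cells (adjusted p = 1.40e-05). Here and below such bounds set only the 0 counts to the floor. They take all other means as fixed and leave out the spread between libraries. Ifi211 (ENSMUSG00000026536, chromosome 1, 173896345 to 173913046, minus strand) likewise had 0 counts in CD11b+CD69- and 13.4 to 42.2 CPM (median 29.5) in CD11b+CD69+ libraries, at least 125-fold higher. Its range was 7.28 to 29.8 CPM in CD27+CD69- and 6.35 to 21.8 CPM in CD27+CD69+ libraries, which overlap. Its fold in CD11b+ cells was at least 161 times that in CD27+ cells (adjusted p = 1.40e-05). Ifi44 and Ifi211 passed in each of the 24 fits that left out a library and each of 13 other fits.

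Rsad2 (chromosome 12, 26442746 to 26456452, minus strand), which encodes the antiviral enzyme viperin, was the third gene with 0 counts in CD11b+CD69- libraries. It ranged from 3.32 to 65.3 CPM in CD11b+CD69+, from 5.20 to 93.2 CPM in CD27+CD69- and from 0 to 87.6 CPM in CD27+CD69+ libraries, 1 of which had none. It was at least 151-fold higher in CD11b+CD69+ than in CD11b+CD69- libraries. That fold was at least 142 times the ratio of means in CD27+ cells (adjusted p = 0.0153 for the CD27-minus-CD11b value). The CD69 difference in CD27+ cells was 0.10 (SE 0.80), a spread that the 142 leaves out. Rsad2 did not pass without the 3 CD27+CD69- libraries richest in melanoma genes (adjusted p = 0.0999) or with the macrophage sum as a covariate (adjusted p = 0.0566). Its spread was wide in the 3 populations that expressed it.

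3 further antiviral genes of the lower group had counts in CD11b+CD69- libraries. Oasl2, an oligoadenylate synthetase-like protein, stood at 0 to 8.68 CPM (median 4.43) in CD11b+CD69- and 15.5 to 75.7 CPM (median 46.8) in CD11b+CD69+ libraries. It had 41.1 to 70.0 CPM (median 44.2) in CD27+CD69- and 29.8 to 91.2 CPM (median 46.7) in CD27+CD69+ libraries. The CD11b+ populations did not overlap, the CD27+ ones did, and the CD27-minus-CD11b value was -3.29 (SE 0.74, adjusted p = 0.0331). Isg20, an exonuclease that degrades viral RNA, went from a median of 13.2 CPM (0.470 to 30.1) to a median of 113 CPM (84.1 to 191) in CD11b+ cells and from a median of 71.7 CPM (56.9 to 105) to a median of 125 CPM (92.1 to 175) in CD27+ cells. CD69+ libraries were above the CD69- median in 6 of 6 cases in both kinds of cell, and the CD27-minus-CD11b value was -2.33 (SE 0.53, adjusted p = 0.0347). Bst2 (chromosome 8, 71534255 to 71537456, minus strand), or tetherin, which holds budding virus at the membrane, went from a median of 53.03 CPM (22.6 to 60.05) to a median of 144 CPM (119.7 to 227) in CD11b+ cells. It stood at 90.02 to 148 CPM (median 136) in CD27+CD69- and 128 to 183 CPM (median 151) in CD27+CD69+ libraries, all above every CD11b+CD69- library, and its value was -1.40 (SE 0.28, adjusted p = 0.0153). Without the 3 CD27+CD69- libraries richest in fibroblast genes the values of Oasl2, Isg20 and Bst2 were -3.44, -2.52 and -1.17, and none was called (adjusted p = 0.0741, 0.0619 and 0.114). Without the 3 richest in melanoma genes Bst2 was called and Oasl2 and Isg20 were not (adjusted p = 0.091 and 0.081). The type I interferon list then had 3 lower calls in either fit, and 1 with the fibroblast and melanoma sums as covariates.

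Ly6e is a GPI-anchored protein induced by interferon. It stood at 501 to 1057 CPM (median 939) in CD11b+CD69- libraries and at 2434 to 2945 CPM (median 2595), 1891 to 3263 CPM (median 2512) and 3059 to 3985 CPM (median 3330) in CD11b+CD69+, CD27+CD69- and CD27+CD69+ libraries. The CD69 difference was 1.61 (SE 0.14, adjusted p = 5.59e-08) in CD11b+ and 0.42 (SE 0.14, adjusted p = 0.152) in CD27+ cells, and the CD27-minus-CD11b value -1.19 (SE 0.20, adjusted p = 0.00271). Lgals3bp, a secreted glycoprotein that binds galectin-3, followed the same order with 289.7 to 460.5 CPM (median 311), 611 to 925 CPM (median 724), 492 to 786 CPM (median 554) and 682 to 820.5 CPM (median 786), and a value of -0.83 (SE 0.18, adjusted p = 0.0280). Slfn5 (chromosome 11, 82951349 to 82964840, plus strand) had counts in 1 of 6 CD11b+CD69- libraries, at 2.46 CPM, and 7.04 to 27.1 CPM (median 11.3) in CD11b+CD69+ libraries. It was 17.3 to 44.6 CPM (median 28.1) in CD27+CD69- and 5.61 to 23.4 CPM (median 9.70) in CD27+CD69+ libraries, and its value was -6.18 (SE 1.03, adjusted p = 0.00271). That value rests on 6 counts in CD11b+CD69- libraries and gives no size. It ran from -9.22 to -5.92 when 1 library at a time was left out. The exons of Slfn5 overlap the antisense gene Slfn5os, and the reads of such pairs cannot be told apart in libraries that keep no strand.

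**Figure D3:**
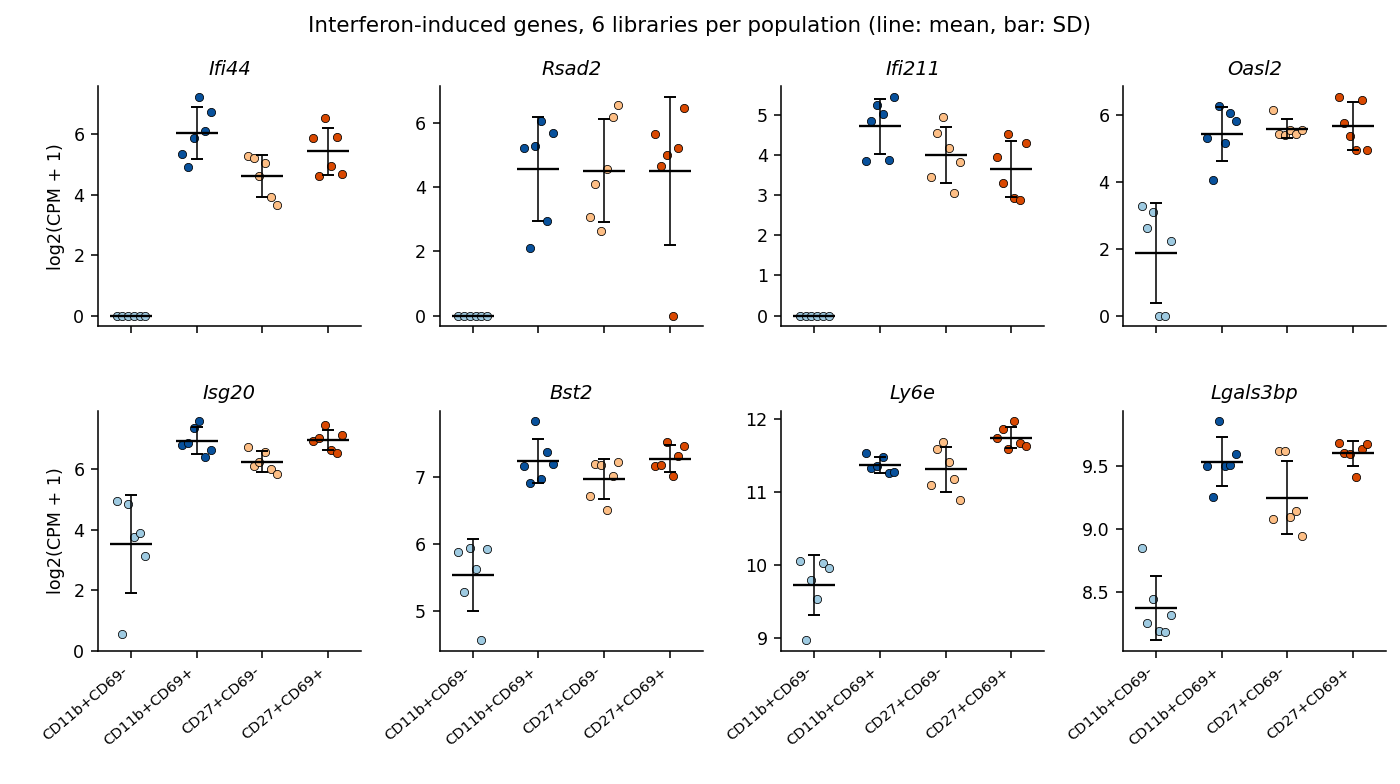
Level of 8 interferon-induced genes (y axis, log2(CPM + 1)) in each of the 24 libraries, with the mean as a line and the SD as a bar (n = 6 per population). The CD11b+CD69- libraries have the lowest mean for every gene, at 0 for Ifi44, Rsad2 and Ifi211, and the 2 CD27+ populations overlap for each gene.

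The other interferon lists had values mostly below 0 and 0 to 1 calls each (0.295% of all reported genes were called lower). Over all reported genes 3921 of 7789 values were below 0, and 1.93% rose with CD69 in CD11b+ and 0.745% in CD27+ cells. Of 14 interferon-induced GTPases, which attack the vacuoles of microbes, 0 were called and 13 were below 0, with a median of -0.85. In CD11b+ cells 6 of them rose, among them Tgtp2 by 1.43 (SE 0.30, adjusted p = 0.00598) and Irgm1, which rose by 1.08 (SE 0.28, adjusted p = 0.0309). Their CD27-minus-CD11b values were -1.51 (SE 0.41, adjusted p = 0.104) and -1.24 (SE 0.39, adjusted p = 0.186). All 10 genes of the Ifi200 family were below 0 (median -0.47), 8 rose in CD11b+ and 1 in CD27+ cells, and Ifi211 alone was called. The family's median CD69 difference was 1.05 in CD11b+ and 0.57 in CD27+ cells. Ifi204 went from a median of 1.78 CPM (0 to 29.2) to a median of 94.6 CPM (64.8 to 114) in CD11b+ cells, which do not overlap, with a value of -4.02 (SE 1.24, adjusted p = 0.180). Of 20 genes of class I antigen presentation, which interferons also raise, 9 rose in CD11b+ and 8 in CD27+ cells, 0 were called for the CD27-minus-CD11b value, and the median was -0.03. Nlrc5, the transactivator of class I genes, had a value of 1.02 (SE 0.34, adjusted p = 0.216).

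Ly6a and Ifitm3, a pair of interferon-induced genes that stromal cells also express, were lowest in CD11b+CD69- and highest in CD27+CD69- libraries. Ifitm3, which blocks virus entry, was 0 to 7.12 CPM (median 1.23) in CD11b+CD69- and 15.6 to 79.95 CPM (median 43.9) in CD11b+CD69+ libraries. It was 246 to 685 CPM (median 446) in CD27+CD69- and 0.907 to 123 CPM (median 32.7) in CD27+CD69+ libraries. It thus rose by 4.29 (SE 0.77, adjusted p = 0.00162) in CD11b+ and fell by 3.45 (SE 0.61, adjusted p = 0.00196) in CD27+ cells, neither with overlap, and its CD27-minus-CD11b value was -7.73 (SE 0.98, adjusted p = 1.55e-04). Ly6a, the stem cell antigen Sca-1, went from a median of 0.908 CPM (0 to 8.61) to a median of 62.6 CPM (14.2 to 146) in CD11b+ cells and from a median of 699.8 CPM (75.3 to 1518) to a median of 169 CPM (60.7 to 274) in CD27+ cells, with a value of -6.88 (SE 1.07, adjusted p = 0.00271). The fibroblast sums are high in the same CD27+CD69- libraries. Without the 3 richest of these libraries the values were -7.26 for Ifitm3 and -5.64 for Ly6a, both called, and with the 2 covariates both calls were lost.

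Hif1a, the oxygen-sensing subunit of the hypoxia response factor, was called lower. It stood at 44.3 to 80.5 CPM (median 63.6) in CD11b+CD69-, 100.2 to 162 CPM (median 125) in CD11b+CD69+, 95.5 to 169.7 CPM (median 129) in CD27+CD69- and 90.2 to 142 CPM (median 117) in CD27+CD69+ libraries. Every CD11b+CD69- library was below every other library. The CD69 difference was 1.02 (SE 0.17, adjusted p = 7.39e-04) in CD11b+ and -0.19 (SE 0.17, adjusted p = 0.842) in CD27+ cells, and the CD27-minus-CD11b value -1.21 (SE 0.24, adjusted p = 0.0153). The call was lost without the 3 libraries richest in fibroblast genes (-1.18, adjusted p = 0.0592). Arhgap5, a GTPase-activating protein, had 1 count in CD11b+CD69- against 246 counts in CD11b+CD69+ libraries, a ratio per library size of 254 (95% interval 45.2 to 10090, counting error only), with CD27+ libraries at 11.8 to 57.7 CPM (CD69-) and 3.31 to 46.2 CPM (CD69+). CD11b+CD69+ libraries ran from 0 to 37.5 CPM and overlapped the CD11b+CD69- ones. The call (adjusted p = 0.0045) was lost with limma-voom and with the 2 covariates. Htra2, a mitochondrial protease, rose by 1.84 (SE 0.38, adjusted p = 0.00458) in CD11b+ cells and had a value of -2.26 (SE 0.52, adjusted p = 0.0412). Its exons overlap Aup1 and Loxl3 on the other strand.

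The other 9 lower genes fell with CD69 in CD27+ cells or passed in neither kind of cell. Fibroblast sums were high in the CD27+CD69- libraries, and melanoma sums were high in their replicates 4, 5 and 6 (1482, 1243 and 10380 CPM). Anxa1, Anxa5, Calu, Cyb5a, Mcfd2, Nedd4 and Pdia4 fell with CD69 in CD27+ cells and were not called in CD11b+ cells. Prnp and Cmtm7 passed in neither. Calu, a calcium-binding protein of the endoplasmic reticulum, was 354 to 815 CPM (median 528) in CD27+CD69- libraries, above all CD27+CD69+ libraries at 161 to 254 CPM (median 204). In CD11b+ libraries it was 206 to 331 CPM (median 245) without and 160.0 to 276 CPM (median 201) with CD69, and the value was -1.07 (SE 0.25, adjusted p = 0.0442). Anxa5, a protein that binds phosphatidylserine, was 416 to 1075 CPM (median 494) in CD27+CD69- and 222 to 372 CPM (median 333) in CD27+CD69+ libraries, again without overlap, with CD11b+ libraries at 114 to 234 CPM (CD69-) and 166 to 278 CPM (CD69+). Its value was -1.25 (SE 0.28, adjusted p = 0.0375). Nedd4, a ubiquitin ligase, fell by 1.63 (SE 0.30, adjusted p = 0.00242) in CD27+ cells, from a median of 214 CPM (114 to 399) to a median of 55.7 CPM (44.6 to 114), and had a value of -1.82 (SE 0.43, adjusted p = 0.0412). Anxa1, a related annexin, fell by 0.76 (SE 0.17, adjusted p = 0.0140) and had a value of -1.03 (SE 0.24, adjusted p = 0.0412).

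Cyb5a, Pdia4 and Mcfd2 act in the endoplasmic reticulum, as an electron carrier, a disulfide isomerase and a cargo receptor. Cyb5a was 127 to 269.9 CPM (median 230.3) in CD27+CD69- and 104 to 158 CPM (median 138) in CD27+CD69+ libraries, and 72.96 to 91.4 CPM (median 76.9) and 92.8 to 126 CPM (median 114) in CD11b+CD69- and CD11b+CD69+ libraries. The ranges overlap in CD27+ but not in CD11b+ cells, and the value was -1.16 (SE 0.23, adjusted p = 0.0138). Pdia4 and Mcfd2 had values of -0.85 (SE 0.19, adjusted p = 0.0296) and -1.27 (SE 0.30, adjusted p = 0.0421), and Cmtm7, a membrane protein of the MARVEL family, -0.99 (SE 0.22, adjusted p = 0.0296). Prnp, the prion protein, was at 0 in 5 of 6 CD11b+CD69- libraries and 11.1 to 107 CPM in CD27+CD69- libraries, with a value of -5.15 (SE 1.23, adjusted p = 0.0475). The Prnp value gives no size and ran from -9.73 to -4.70 when 1 library at a time was left out. Without the 3 CD27+CD69- libraries richest in fibroblast genes 0 of these 9 genes were called, with -0.55 for Anxa1, -0.79 for Calu, -0.83 for Cyb5a, -0.86 for Pdia4, -0.99 for Mcfd2, -1.07 for Anxa5 and Cmtm7, -1.73 for Nedd4 and -4.80 for Prnp. Without the 3 libraries richest in melanoma genes Anxa1, Cmtm7 and Cyb5a were called, at -1.08, -1.16 and -1.19. The other 6 were not, at -0.90 for Pdia4, -0.91 for Anxa5, -0.92 for Calu, -1.19 for Nedd4, -1.25 for Mcfd2 and -5.42 for Prnp. With the fibroblast and melanoma sums as covariates, a fit that keeps all libraries, 0 of these 9 genes were called. Values were then -0.59 for Mcfd2, -0.64 for Pdia4, -0.73 for Calu, -0.76 for Anxa1 and -0.82 for Anxa5. Those of Cmtm7, Cyb5a, Nedd4 and Prnp were -1.03, -1.09, -1.54 and -4.84. The part of stromal or melanoma RNA in the values of these 9 genes was not tested. The fits that leave out 3 libraries also have fewer libraries.

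Among the 24 higher genes, the largest group fell with CD69 in CD11b+ cells and was not called in CD27+ cells. 1 of its 15 genes, ENSMUSG00000115681, has no symbol in the table and had a value of 1.14 (SE 0.22, adjusted p = 0.0118). Rap1b (chromosome 10, 117813871 to 117846035, minus strand), a GTPase that activates integrins, was 1998 to 2625 CPM (median 2271) in CD11b+CD69- and 1058 to 1352 CPM (median 1237) in CD11b+CD69+ libraries, and 910.5 to 1339 CPM (median 1179) and 846 to 1105 CPM (median 1012) in CD27+CD69- and CD27+CD69+ libraries. Every CD11b+CD69- library was above every other library. Rap1b fell by 0.90 (SE 0.10, adjusted p = 2.24e-06) in CD11b+ cells, and its CD27-minus-CD11b value was 0.70 (SE 0.14, adjusted p = 0.0153). Itgb2 (chromosome 10, 77530252 to 77565708, plus strand), the integrin beta-2 chain that pairs with CD11b and with CD11a, fell by 1.11 (SE 0.19, adjusted p = 8.81e-04) in CD11b+ cells, from a median of 1866 CPM (1678 to 2323) to a median of 897 CPM (724 to 1001). In CD27+ cells it was 314 to 1055 CPM (median 602) and 542 to 881 CPM (median 648), a wide spread in CD69- libraries, and its value was 1.19 (SE 0.27, adjusted p = 0.0372). Nedd9, a scaffold of integrin signalling, fell by 0.69 (SE 0.19, adjusted p = 0.0449) in CD11b+ cells and had a value of 1.15 (SE 0.27, adjusted p = 0.0441).

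Rhoh, a GTPase of blood cells that cannot cleave GTP, had CD69 differences of -0.52 (SE 0.16, adjusted p = 0.0736) in CD11b+ and 0.57 (SE 0.16, adjusted p = 0.0537) in CD27+ cells, with a value of 1.09 (SE 0.22, adjusted p = 0.0153). Ccnd3, the cyclin D3 of the G1 phase, fell in CD11b+ cells from a median of 792 CPM (602 to 970.1) to a median of 460.0 CPM (409 to 517) and was 194 to 362 CPM (median 299) and 268 to 365 CPM (median 306) in CD27+ cells, with a value of 0.90 (SE 0.19, adjusted p = 0.0234). H2afz, the variant histone H2A.Z, fell by 0.82 (SE 0.10, adjusted p = 8.04e-06) in CD11b+ cells and had a value of 0.60. Bin1, which bends membranes, Tm6sf1 and Tmem37 also fell in CD11b+ cells, with CD69 differences of -0.73, -0.99 and -1.19, and had values of 0.96, 1.11 and 1.34.

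Ero1lb and Gatsl3 had the largest values of the higher genes. Ero1lb, an oxidase that forms disulfide bonds in the endoplasmic reticulum, was 20.2 to 42.02 CPM (median 33.2) in CD11b+CD69- and 4.97 to 11.7 CPM (median 8.96) in CD11b+CD69+ libraries, with no overlap. It was 10.7 to 23.7 CPM (median 15.9) in CD27+CD69- and 16.2 to 38.3 CPM (median 24.7) in CD27+CD69+ libraries, which overlap, and its value was 2.63 (SE 0.46, adjusted p = 0.00451). Gatsl3, which encodes the arginine sensor CASTOR1 of mTORC1, went from a median of 93.1 CPM (75.9 to 117) to a median of 32.9 CPM (9.54 to 47.04) in CD11b+ cells and was 24.1 to 39.2 CPM (median 33.9) and 19.3 to 61.8 CPM (median 41.6) in CD27+ cells, with a value of 2.07 (SE 0.42, adjusted p = 0.0153). Both calls held in all 24 fits that left out a library and were lost without the 3 libraries richest in fibroblast genes (2.54 and 2.26, adjusted p = 0.0541 and 0.0569).

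3 NK cell receptor genes were called higher, 2 of 18 activating and 1 of 15 inhibitory ones, where 0.308% of all reported genes were. Klra9, which encodes the inhibitory Ly49 receptor Ly49I, was 894 to 1259 CPM (median 1065) in CD11b+CD69- and 478 to 926 CPM (median 724) in CD11b+CD69+ libraries, and 80.8 to 316 CPM (median 191) and 260.5 to 501 CPM (median 395) in CD27+CD69- and CD27+CD69+ libraries. Its CD69 difference was -0.59 (SE 0.21, adjusted p = 0.139) in CD11b+ cells, and it rose in CD27+ cells by 0.94 (SE 0.21, adjusted p = 0.0139), with a value of 1.53 (SE 0.29, adjusted p = 0.0118). Klra9 was the 1 higher gene that passed both under pan-leukocyte scaling and without either set of 3 libraries, at 1.15, 1.48 and 1.26. Slamf7, a receptor that activates NK cells through EAT-2, was 96.5 to 139.7 CPM (median 118) in CD27+CD69- and 167 to 262 CPM (median 207) in CD27+CD69+ libraries, without overlap. In CD11b+ cells it was 235 to 525 CPM (median 307) and 171 to 306 CPM (median 241), and its value was 1.27 (SE 0.24, adjusted p = 0.0118). Klrc2, which encodes the activating receptor NKG2C, fell in CD11b+ cells from a median of 559 CPM (430.1 to 652) to a median of 369.5 CPM (294 to 399), was 176 to 401 CPM (median 311) and 293 to 438 CPM (median 375) in CD27+ cells, and had a value of 0.97 (SE 0.20, adjusted p = 0.0177). Under pan-leukocyte scaling Slamf7 and Klrc2 were not called, at 0.83 (adjusted p = 0.0736) and 0.55 (adjusted p = 0.103). Reads of the Klra, Klrc and Ly6 families can be shared among near-identical copies, so the levels of single members are uncertain.

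Ly6c2, a GPI-anchored antigen of mature NK cells, fell in CD11b+ cells from a median of 1172 CPM (838 to 1399) to a median of 505 CPM (417 to 581) and was 346 to 1355 CPM (median 923) in CD27+CD69- and 301 to 1926 CPM (median 1655) in CD27+CD69+ libraries. Its value was 1.95 (SE 0.43, adjusted p = 0.0333), with 1 CD27+CD69+ library, replicate 6, at 301.0 CPM, far below the other 5. Without that library the number of calls rose to 37 higher and 35 lower. Hopx, a homeodomain cofactor of effector lymphocytes, stood at 184 to 265 CPM (median 231) in CD27+CD69+, 98.1 to 171 CPM (median 119) in CD27+CD69-, 107 to 172 CPM (median 144) in CD11b+CD69- and 114 to 143 CPM (median 133) in CD11b+CD69+ libraries, so that every CD27+CD69+ library was above every other library. It rose by 0.82 (SE 0.14, adjusted p = 8.19e-04) in CD27+ cells and had a value of 0.95 (SE 0.20, adjusted p = 0.0171). Nkg7, a protein of cytotoxic granules, was 6194 to 6718 CPM (median 6469) and 4816 to 5688 CPM (median 5313) in CD11b+ cells and 2618 to 4069 CPM (median 3646) and 3604 to 4593 CPM (median 4068) in CD27+ cells, with a value of 0.52 (SE 0.12, adjusted p = 0.0387). Bcl2, which keeps NK cells alive under IL-15, had a value of 0.74 (SE 0.18, adjusted p = 0.0475) from differences of -0.34 (SE 0.12, adjusted p = 0.157) in CD11b+ and 0.39 (SE 0.12, adjusted p = 0.116) in CD27+ cells. The Bcl2 call held in 4 of the 24 fits that left out a library. Zbtb8os rose by 0.68 (SE 0.18, adjusted p = 0.0493) in CD27+ cells and had a value of 1.17. Gltp, which moves glycolipids, and Prr13 passed in neither kind of cell alone, with values of 0.70 and 0.70.

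**Figure D4:**
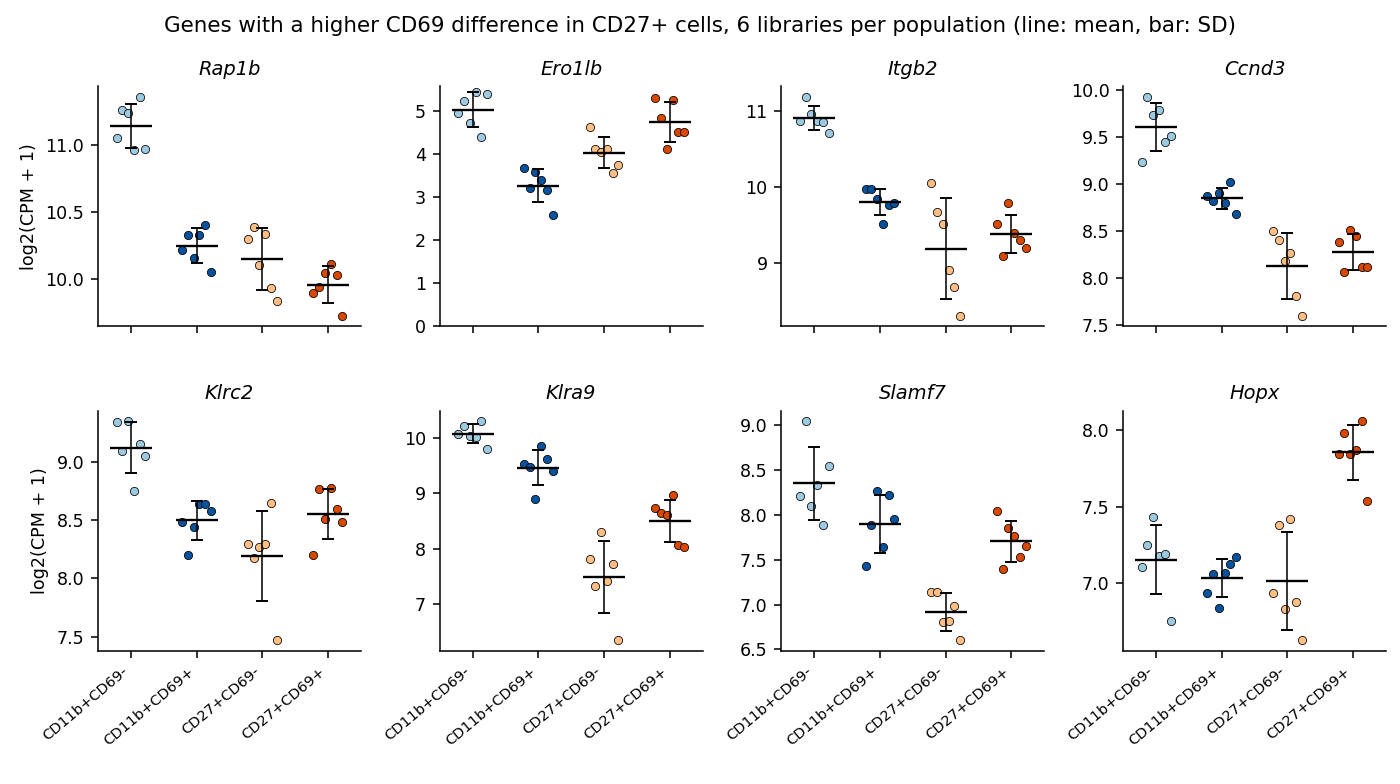
Level of 8 of the 24 higher genes (y axis, log2(CPM + 1), each panel with its own range) in each of the 24 libraries, with the mean as a line and the SD as a bar (n = 6 per population). Rap1b, Ero1lb, Itgb2, Ccnd3 and Klrc2 have their highest mean in CD11b+CD69- libraries, and Hopx is highest in CD27+CD69+ libraries (184 to 265 CPM).

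Values of NK and leukocyte genes were nearly all above 0, which depended on the scaling. All 19 measured genes of the NK identity list had a value above 0 (median 0.38) and 23 of 24 pan-leukocyte genes did (median 0.39), although 2 and 1 of them were called. Scaled by the pan-leukocyte list, the NK identity median was -0.04, against a median of -0.46 over all reported genes. The pan-leukocyte sum was 13620 to 24240 CPM in CD27+CD69- against 23230 to 27040 CPM in CD27+CD69+ libraries. It was 29680 to 31280 CPM in CD11b+CD69- and 27440 to 28380 CPM in CD11b+CD69+ libraries. The part of this shift in the values of the higher genes was not tested beyond that scaling, under which Klrc2, Slamf7, Hopx, Rap1b, Ccnd3, Itgb2, Bcl2 and Nkg7 kept a positive value and lost the call.

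Lists of mature NK cells and of exit from tissue had medians above 0 under every scaling, with 1 call. Of 13 reported mature genes 1 was called, Ly6c2, and 11 were above 0, with a median of 0.79. The median CD69 difference of this list was -1.24 in CD11b+ and -0.47 in CD27+ cells, with 6 falls (1.4% of all reported genes fell) and 2 falls (0.603%). Irf8, which controls genes of NK effector cells, fell by 0.70 (SE 0.15, adjusted p = 0.00928) in CD11b+ cells and had a CD69 difference of -0.01 in CD27+ cells, with a value of 0.68 (SE 0.22, adjusted p = 0.194). As3mt, an arsenic methyltransferase, fell in both, from a median of 309 CPM (215 to 358) to a median of 73.3 CPM (54.7 to 107) and from a median of 71.8 CPM (37.1 to 101) to a median of 43.99 CPM (25.3 to 51.2), with a value of 1.14 (SE 0.30, adjusted p = 0.0819). Of 8 reported egress genes 0 were called and 7 were above 0 (median 0.79). Klf2, the transcription factor that maintains the exit receptor S1PR1, was 733 to 829.6 CPM (median 753) in CD11b+CD69-, 299 to 449 CPM (median 344) in CD11b+CD69+, 176 to 364 CPM (median 263) in CD27+CD69- and 154 to 257 CPM (median 214) in CD27+CD69+ libraries. It fell by 1.11 (SE 0.14, adjusted p = 9.55e-06) in CD11b+ cells, and its CD27-minus-CD11b value just missed the threshold at 0.80 (SE 0.19, adjusted p = 0.0505). The mature median stayed at 0.65 with the 2 covariates, while the egress median went to -0.02.

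Genes of less mature and of tissue-resident cells mostly had values below 0, with 0 calls. Of 14 immature genes 0 were called and 12 were below 0 (median -0.50), as were 3921 of all 7789 reported genes. With CD69, 8 of the 14 rose in CD11b+ and 1 in CD27+ cells (1.93% and 0.745% of all reported genes rose). Their median CD69 difference was 1.02 in CD11b+ and 0.48 in CD27+ cells. Ltb, or lymphotoxin beta, rose by 2.30 (SE 0.41, adjusted p = 0.00118) in CD11b+ cells and had a value of -1.81 (SE 0.55, adjusted p = 0.156). Of 13 genes of tissue residency 0 were called and 9 were below 0 (median -0.46). Ccr2, which guides leukocytes to sites of inflammation, rose by 1.04 (SE 0.17, adjusted p = 4.00e-04) in CD11b+ cells and had a value of -0.84 (SE 0.23, adjusted p = 0.112). Gpr183, an oxysterol receptor, rose by 1.92 (SE 0.40, adjusted p = 0.00556), with a value of -1.55 (SE 0.53, adjusted p = 0.252). Ltb ranged from 76.7 to 458 CPM in CD27+CD69- and from 2.46 to 31.6 CPM in CD11b+CD69- libraries, and Gpr183 from 153 to 283 and 1.48 to 24.2 CPM, without overlap between these CD69- populations.

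**Figure D5:**
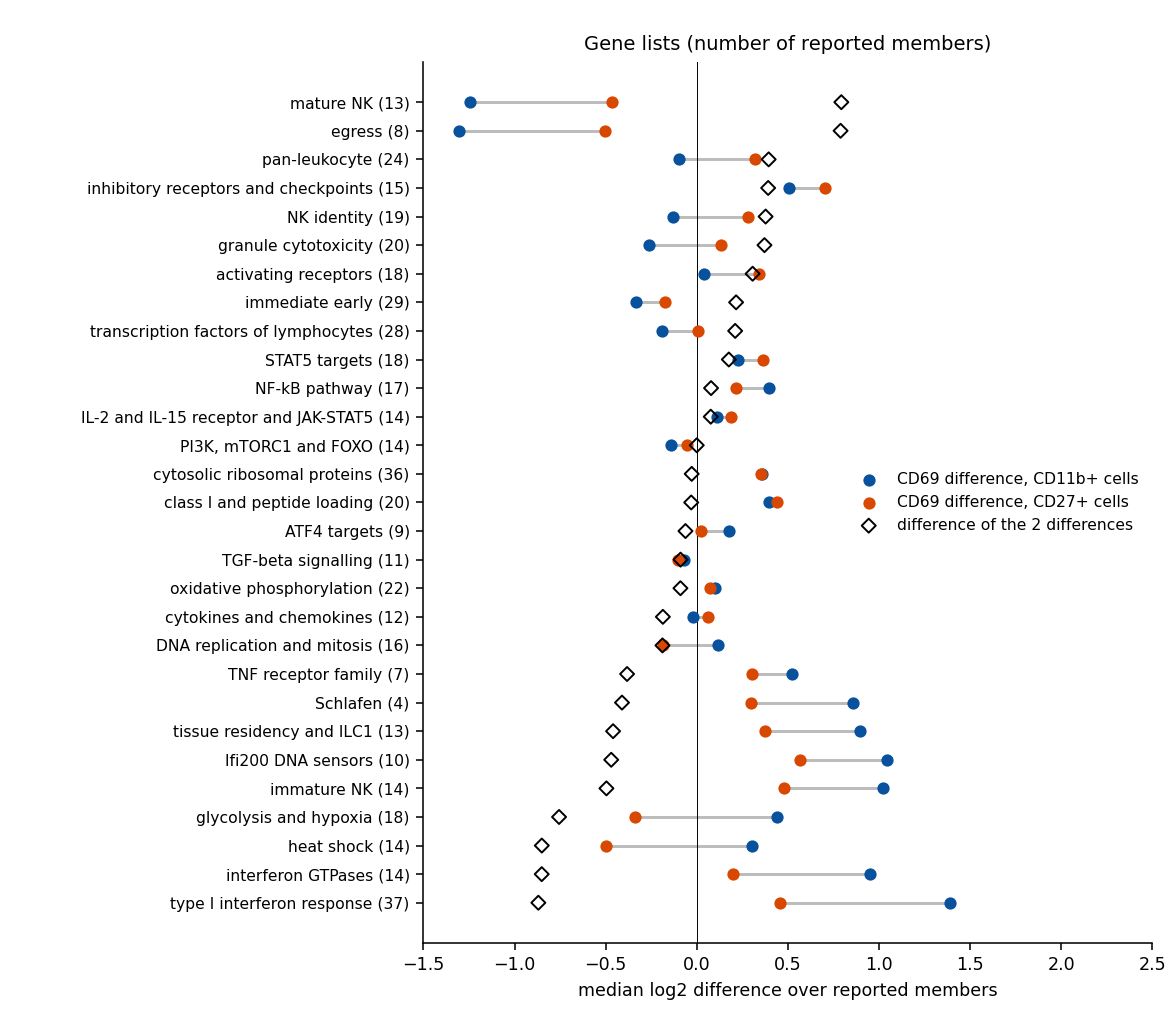
Median CD69 difference over the reported members of 29 gene lists in CD11b+ cells (blue) and in CD27+ cells (red), and median CD27-minus-CD11b value (open diamonds), all in log2, with the number of reported members beside each list name. Mature NK and egress genes have the highest median values (0.79 each) and the type I interferon, GTPase and heat shock lists the lowest (-0.87, -0.85 and -0.85). The values are TMM-scaled, and under pan-leukocyte scaling, where the median of all reported genes is -0.46, the mature NK and egress lists alone of the 29 keep a median above 0.

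Effector genes and receptors gave 4 calls. Of 20 granule genes 1 was called higher, Nkg7, with a median of 0.37 (0.308% of all reported genes were called higher). Of 18 activating receptor genes 2 were (Klrc2 and Slamf7, median 0.31), and of 15 inhibitory receptors 1 was (Klra9, median 0.39). Under pan-leukocyte scaling these 3 medians were -0.04, -0.11 and -0.03. Fasl, a death ligand, fell by 0.55 (SE 0.12, adjusted p = 0.00844) in CD11b+ cells with a value of 0.59 (SE 0.17, adjusted p = 0.122). Gzmc, a granzyme of strongly stimulated lymphocytes, rose in both, from a median of 11.1 CPM (0 to 36.9) to a median of 234 CPM (121 to 475) in CD11b+ and from a median of 13.4 CPM (5.92 to 25.1) to a median of 261 CPM (27.9 to 1172) in CD27+ cells, and the CD69 differences were 4.29 (SE 0.76, adjusted p = 0.00162) and 4.70 (SE 0.77, adjusted p = 0.00107). Its CD27-minus-CD11b value was 0.41 (SE 1.00, adjusted p = 0.987), an SE that leaves room for a difference of either sign. Of 12 cytokine and chemokine genes 0 were called (median -0.19). Xcl1, a chemokine for XCR1+ dendritic cells, also rose in both, from a median of 143 CPM (74.9 to 259.9) to a median of 736 CPM (519.7 to 955) and from a median of 339.6 CPM (150.1 to 383) to a median of 703 CPM (528 to 769), with a value of -1.01 (SE 0.33, adjusted p = 0.217). Ccl5, a chemokine for T cells, fell by 0.98 (SE 0.13, adjusted p = 2.04e-05) in CD11b+ cells, with a value of 0.67 (SE 0.18, adjusted p = 0.0933).

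Flt3l, the ligand that supports dendritic cell development, was not called. It was 32.5 to 61.6 CPM (median 52.8) in CD11b+CD69-, 25.7 to 60.4 CPM (median 40.4) in CD11b+CD69+, 14.02 to 75.9 CPM (median 41.2) in CD27+CD69- and 38.5 to 75.7 CPM (median 61.7) in CD27+CD69+ libraries, and all 4 ranges overlap. Its CD69 differences were -0.27 and 0.48, and its CD27-minus-CD11b value 0.75 (SE 0.42, adjusted p = 0.647). Of 14 genes of the IL-2 and IL-15 receptor and its JAK-STAT5 pathway 0 were called (median 0.08). The shared gamma chain Il2rg rose by 0.51 (SE 0.11, adjusted p = 0.0131) in CD27+ cells and had a value of 0.30 (SE 0.16, adjusted p = 0.585), the shared beta chain Il2rb had 0.11 (SE 0.25, adjusted p = 0.981) and Il15ra, which presents IL-15, -0.13 (SE 0.53, adjusted p = 0.991). Il2ra, which raises the affinity of the receptor for IL-2, was below the level for reporting, with 0 to 10.7 CPM (median 0) and 7.08 to 54.2 CPM (median 12.2) in CD11b+ and 0 to 8.87 CPM (median 2.60) and 14.2 to 39.7 CPM (median 22.3) in CD27+ cells. Of 18 STAT5 target genes 2 were called higher, Ccnd3 and Bcl2 (0.308% of all reported genes were), with a list median of 0.18. Under pan-leukocyte scaling 0 of the 18 were called higher and the median was -0.23, and without either set of 3 CD27+CD69- libraries 0 were called. Cish, an inhibitor that STAT5 induces, rose by 1.10 (SE 0.25, adjusted p = 0.0158) in CD27+ cells, against 0.46 (SE 0.24, adjusted p = 0.414) in CD11b+ cells, and its value was 0.64 (SE 0.35, adjusted p = 0.615).

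Levels of the genes of the sort followed their labels, with some overlap for Cd27, and none of these genes was called for the CD27-minus-CD11b value. Cd69 was 304 to 901 CPM (median 589) in CD11b+CD69-, 1051 to 1207 CPM (median 1086) in CD11b+CD69+, 380.2 to 917 CPM (median 759) in CD27+CD69- and 1061 to 1417 CPM (median 1128) in CD27+CD69+ libraries. Its CD69 differences were 0.87 (SE 0.20, adjusted p = 0.0135) and 0.67 (SE 0.20, adjusted p = 0.0907), and its CD27-minus-CD11b value -0.20 (SE 0.28, adjusted p = 0.942). Itgam, which encodes CD11b, was 59.8 to 133 and 32.6 to 66.3 CPM in CD11b+CD69- and CD11b+CD69+ libraries and 2.46 to 19.9 and 0 to 13.7 CPM in CD27+ ones, with a value of -0.44 (SE 0.70, adjusted p = 0.954). Cd27 was 34.8 to 149 and 85.9 to 190 CPM in CD11b+CD69- and CD11b+CD69+ libraries. In CD27+CD69- and CD27+CD69+ libraries it was 179 to 355 and 296 to 375 CPM, with a value of -0.38 (SE 0.32, adjusted p = 0.827). Cma1, a chymase gene of mature NK cells, fell by 3.47 (SE 0.45, adjusted p = 3.29e-05) in CD11b+ cells, where it went from a median of 826 CPM (686 to 1171) to a median of 74.9 CPM (59.3 to 99.9). It was already at 13.2 to 38.3 CPM in CD27+CD69- libraries and had a value of 1.49 (SE 0.70, adjusted p = 0.502). The exit receptor gene S1pr5 had a value of 1.06 (SE 0.62, adjusted p = 0.670), and the fractalkine receptor gene Cx3cr1, below the level for reporting at 0 to 11.8 and 0 to 2.41 CPM in CD27+ libraries, 0.82 (SE 1.99, adjusted p = 0.986).

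Values of stress and hypoxia genes were mostly below 0, with 1 call. All 14 heat shock genes, which encode chaperones, were below 0 (median -0.85), and 0 were called. Hspb1 had 0 counts in CD11b+CD69- libraries and 0 to 50.1, 0.910 to 224 and 0 to 63.1 CPM in CD11b+CD69+, CD27+CD69- and CD27+CD69+ libraries (adjusted p = 0.224), and Bag3, a cochaperone, had a value of -2.29 (SE 0.85, adjusted p = 0.307). Of 18 glycolysis and hypoxia genes 1 was called, Hif1a, and 16 were below 0 (median -0.76). Bnip3, a hypoxia-induced mitochondrial protein, was 11.4 to 272 CPM (median 47.3) in CD27+CD69- and 5.61 to 66.9 CPM (median 23.1) in CD27+CD69+ libraries, with a value of -2.88 (SE 0.89, adjusted p = 0.179). Without the 3 CD27+CD69- libraries richest in melanoma genes the glycolysis median was -0.26, the heat shock median -0.47 and Bnip3 -0.51. Without the 3 richest in fibroblast genes these were -0.69, -0.52 and -2.79. The medians of 36 cytosolic ribosomal protein genes and 22 oxidative phosphorylation genes were -0.03 and -0.09, with 0 calls in either list. Of 16 replication and mitosis genes 0 were called (median -0.19).

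Signalling and activation lists gave 0 calls. Among 29 immediate early genes the median was 0.22, and Ier2 fell by 0.86 (SE 0.14, adjusted p = 4.14e-04) in CD11b+ cells with a value of 0.45 (SE 0.19, adjusted p = 0.430). The median was 0.08 for 17 genes of the NF-kB pathway, close to 0 for 14 of PI3K, mTORC1 and FOXO signalling, -0.09 for 11 of TGF-beta signalling, -0.06 for 9 ATF4 targets and -0.38 for 7 TNF receptor family genes. Cd83, a surface protein of activated leukocytes, rose in CD11b+ cells by 6.02 (SE 1.00, adjusted p = 7.39e-04), from a median of 0.706 CPM (0 to 5.74) to a median of 104 CPM (0 to 314), and its CD27-minus-CD11b value of -5.12 (SE 1.23, adjusted p = 0.0530) just missed the threshold. Tnfrsf9, the costimulatory receptor 4-1BB, rose in both kinds of cell, by 1.22 (SE 0.19, adjusted p = 2.00e-04) and 0.85 (SE 0.19, adjusted p = 0.0113), with a value of -0.37 (SE 0.26, adjusted p = 0.768). Tgfbr2, a TGF-beta receptor chain, had -1.42 (SE 0.41, adjusted p = 0.122). Among 28 transcription factors of lymphocytes the median was 0.21 and 0 were called. Under pan-leukocyte scaling the medians of the immediate early, NF-kB and transcription factor lists were -0.20, -0.38 and -0.23, and that of the IL-2 and IL-15 list was -0.34.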

How the data were processed

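RNA of 100 sorted cells per library was amplified with the SMART-Seq v4 kit and made into libraries with Nextera XT, per the labels' protocols, with no molecular identifiers or strand marks, and the intervals and floors given reflect counting error alone. The authors deposited 1 table of raw gene counts for 53465 gene identifiers and all 24 libraries. HTSeq, Picard and GRCm38 are named in the submitters' processing notes, with the aligner not given in the sources used here. Repeated rows (6) were dropped, and genes with no symbol held 0.174% of counts. Replicate libraries differed beyond sampling noise in all 60 pairs (chi-square per degree of freedom 10.4 to 32.3).

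Counts were fitted in edgeR 4.0.16 (R 4.3.3) with 1 mean per population, TMM scaling, filterByExpr at a minimum count of 10 and the robust quasi-likelihood test. Means are of CPM on TMM-scaled library sizes. Each SE is the absolute log2 difference divided by the square root of its F statistic, not a separate estimate. Alternatives used DESeq2 1.42.0, limma 3.58.1 (voom), other scalings, filters and covariates, a replicate block and left-out libraries. The 2 that drop 3 CD27+CD69- libraries were chosen after seeing the data. Marker sums above 5000 CPM (fibroblast) or 1000 CPM (melanoma) chose those libraries. The fitting script was tested on simulated data. There the main test called 12% and 14% of genes given a CD27-minus-CD11b value of -1 and 1. It called 64% and 60% of those given -2 and 2, 50 genes each, so a missing call is no sign of equal differences.

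Genes named are the called genes with a symbol (at most 15 per direction by size under the rule, the rest named after their values were seen, to account for the calls), from each list the 2 members of smallest p, and a set of genes of the sort, of IL-2 and IL-15 signalling and of egress. Of this rule's 98 genes, list members without a call in the CD27-minus-CD11b value are not all described. Members and lists were chosen with earlier results of these data known. 2 called genes are not reported here. Positions come from GENCODE M21. Of these 98 genes, 29 have exons that overlap another gene's.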

Additional observations from a re-analysis of the deposited data

Results flagged for a closer look

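The test of the difference between the CD69 effects marked 46 genes with a symbol, of which 44 are given here with its CD27-minus-CD11b value in log2. The lower genes were Ifitm3 (-7.73), Ly6a (-6.88), Slfn5 (-6.18), Prnp (-5.15), Oasl2 (-3.29), Isg20 (-2.33), Htra2 (-2.26), Nedd4 (-1.82), Bst2 (-1.40), Mcfd2 (-1.27), Anxa5 (-1.25), Hif1a (-1.21), Ly6e (-1.19), Cyb5a (-1.16), Calu (-1.07), Anxa1 (-1.03), Cmtm7 (-0.99), Pdia4 (-0.85) and Lgals3bp (-0.83). For Ifi44, Ifi211 and Rsad2, with 0 counts in CD11b+CD69- libraries, the fold in CD11b+ cells was at least 184, 161 and 142 times that in CD27+ cells. These bounds take the other means as fixed and leave out the spread between libraries. Arhgap5, with 1 count there, had a ratio of 254 in CD11b+ cells. Slfn5 and Prnp had counts in 1 CD11b+CD69- library each, so their values give no size.

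The higher genes were Ero1lb (2.63), Gatsl3 (2.07), Ly6c2 (1.95), Klra9 (1.53), Tmem37 (1.34), Slamf7 (1.27), Itgb2 (1.19), Zbtb8os (1.17), Nedd9 (1.15), Tm6sf1 (1.11), Rhoh (1.09), Klrc2 (0.97), Bin1 (0.96), Hopx (0.95), Ccnd3 (0.90), Bcl2 (0.74), Prr13 (0.70), Rap1b (0.70), Gltp (0.70), H2afz (0.60) and Nkg7 (0.52).

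A single library lay far from the other 5 of its population in 18 of 160 sets of 6 values looked at (36 genes and 4 marker sums), where chance marks about 1 in 20. In CD11b+CD69- libraries these were Slfn5 at 2.46 CPM in replicate 6, Calu at 331 CPM in replicate 2, the fibroblast sum at 8.02 CPM in replicate 4, and in replicate 1 Lgals3bp at 460.5 CPM, Prnp at 8.22 CPM and Nedd4 at 46.1 CPM. In CD27+CD69- libraries Oasl2 stood at 70.0 CPM in replicate 1. Replicate 6 of that population stood apart for Anxa5 (1075 CPM), Cd69 (380.2 CPM), the melanoma sum (10380 CPM), the pan-leukocyte sum (13620 CPM) and the NK identity sum (11640 CPM). In CD27+CD69+ libraries Lgals3bp stood apart at 682 CPM in replicate 4 and Gzmc at 1172 CPM in replicate 2. Replicate 6 of that population stood apart for Ifitm3 (122.8 CPM), Ly6c2 (301.0 CPM), the fibroblast sum (310.1 CPM) and the melanoma sum (826 CPM).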

How the results depend on the processing

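The 46 called genes with a symbol gave 1702 values over 37 alternatives: 1209 stayed past the threshold, 493 did not and 0 changed sign. The 52 named genes not called gave 1922 values, of which 46 passed. The counts of calls, 24 higher and 23 lower for the CD27-minus-CD11b value, were 3 and 114 under pan-leukocyte scaling, 58 and 53 with DESeq2, 37 higher with limma-voom, 0 and 2 with the fibroblast and melanoma covariates (379 genes at an unadjusted p under 0.05), 11 and 15 with the macrophage covariate, 13 lower at 10 CPM in all 4 populations, 8 and 8 without the libraries rich in fibroblast genes, and 5 and 16 without those rich in melanoma genes. DESeq2 size factors (22 and 24), thinned counts (26 and 22) and the other filters stayed within 1.5 times.

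For the CD11b+ difference (150 up, 109 down) the counts were 64 down under pan-leukocyte scaling, 228 up and 175 down with DESeq2, and 168 down with limma-voom. For the CD27+ difference (58 up, 47 down) they were 14 and 279 under pan-leukocyte scaling, 38 up in a fit of the reported genes alone, 88 and 94 with DESeq2, 2 and 0 with the 2 covariates, 30 and 28 with the macrophage covariate, 28 and 14 without the libraries rich in fibroblast genes, and 13 and 31 without those rich in melanoma genes. The causes of these shifts were not tested, and the settings that leave out 3 libraries also have fewer libraries to test with.

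Leaving out 1 library gave 12 to 37 higher and 13 to 35 lower genes for the CD27-minus-CD11b value, 109 to 177 up and 79 to 135 down in CD11b+ cells, and 35 to 63 up and 26 to 69 down in CD27+ cells. Higher calls moved by over 1.5 times without CD11b+CD69- replicates 2 (15), 4 (12) and 5 (15), CD11b+CD69+ replicate 3 (14) and CD27+CD69+ replicates 4 (12) and 6 (37). Lower calls did so without CD11b+CD69- replicates 4 (14) and 5 (15), CD11b+CD69+ replicates 3 (14) and 6 (14) and CD27+CD69+ replicates 2 (15), 4 (13), 5 (14) and 6 (35). In CD27+ cells CD27+CD69- replicate 6 (35 up, 30 down) and CD27+CD69+ replicates 2 (26 down) and 3 (28 down) did so. A fit with the replicate number as a block called 30 higher and 21 lower, 20 of the main calls in each direction. The labels do not say what the number marks, and 1 of 36 same-numbered pairs of libraries had a correlation of deviations over 0.1 (replicate 6 of the CD27+ populations, 0.21, each the highest of its population in melanoma genes). The range was -0.029 to 0.21 (median 0.002), best with their own number in 4. Among the 24 fits without 1 library, the call held in 4 for Bcl2, in 5 for Prnp and in 6 for Anxa1, H2afz, Mcfd2 and Nedd9. It held in 7 for Calu and Nedd4 and in 8 for Htra2 and Nkg7. The other called genes given here kept theirs in 10 or more. Genes of a few CPM rest on few counts, since 3 counts were up to 2.47 CPM.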

Other observations

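Erythroid genes, which belong to none of the sorted cells, summed to 3387 CPM in 1 CD27+CD69+ library, replicate 3, against a median of 1.61 CPM in that population. The CD27+CD69- maximum was 283 CPM, and CD11b+ libraries did not exceed 6.21 CPM.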
